A study of Mus musculus with 3 samples.

Results

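The genes described here are those that set fibroblastic reticular cells (FRC) of the mouse mesenteric lymph node apart from lymphatic endothelial cells (LEC) and from blood endothelial cells (BEC) at the same time. For each gene, the level on the FRC array was set against the higher and against the lower of the LEC and BEC arrays, so that a gene counted only if FRC lay above both endothelia or below both. The comparison covered 18091 genes: 861 (4.76%) exceeded both endothelia by 4-fold or more in FRC and 583 (3.22%) fell short of both by as much, 1444 genes in all. All 3 populations came from mesenteric lymph nodes of C57BL/6NCrl mice that the labels call wildtyp, with no other treatment given. They were digested with collagenase, depleted of CD45-bearing cells on magnetic columns and sorted as CD45- CD24- cells: FRC as gp38+ CD31-, LEC as gp38+ CD31+ and BEC as gp38- CD31+. The labels give a mean purity of 88% ± 1.5 over the sorted subsets, without the kind of error, and do not state how many mice or sorts each RNA holds or the age of the mice. Each population was hybridised to 1 single-colour array, so no difference below has a replicate check, no test was made and no p-value is given.

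FRC are fibroblasts that wrap the collagen fibres of the lymph node and form the scaffold along which T cells and dendritic cells move. They make the matrix of that scaffold, chemokines that hold lymphocytes in the T cell area and in follicles, and survival factors for lymphocytes. The endothelial populations share the same tissue but line its lymph sinuses and blood vessels. They are recognised by junction proteins, vascular receptor kinases and transcription factors, many of them low in fibroblasts.

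Promoters of 5 genes, chosen as markers of either side, are shown for sequence context. They are RefSeq sequences on build GRCm38.p6, from 250 bases before to 50 bases after each annotated transcript start, so the start follows base 250 of 300. Both strands were searched for 5 short motifs, none of which contains another: the TATA box TATAAA, the CCAAT box CCAAT, the GC box GGGCGG, the E-box CATCTG that TWIST proteins bind and the ETS core CCGGAAG. Capitals mark every match, written as it reads on the gene's strand. The first 3 promoters belong to genes by which FRC are recognised, and the other 2 to endothelial receptor kinases that were far lower in FRC. The window of Tek, a further endothelial receptor kinase, was also searched and is not printed. It held no match, and Tek was not 4-fold lower in FRC.
Pdgfra, chr5:75152001-75152300, plus strand: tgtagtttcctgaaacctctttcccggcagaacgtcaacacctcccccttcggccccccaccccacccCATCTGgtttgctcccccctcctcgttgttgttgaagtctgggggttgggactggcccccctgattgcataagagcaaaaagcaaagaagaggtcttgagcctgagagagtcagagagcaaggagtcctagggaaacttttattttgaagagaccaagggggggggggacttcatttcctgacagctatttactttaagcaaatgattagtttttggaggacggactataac
Ccl19, chr4:42756316-42756615, minus strand: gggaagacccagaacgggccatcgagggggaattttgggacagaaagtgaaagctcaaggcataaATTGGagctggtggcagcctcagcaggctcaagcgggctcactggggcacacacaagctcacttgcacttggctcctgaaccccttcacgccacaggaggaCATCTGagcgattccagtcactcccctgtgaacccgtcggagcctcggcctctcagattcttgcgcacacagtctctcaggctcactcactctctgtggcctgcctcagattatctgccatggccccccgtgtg
Cxcl13, chr5:95956689-95956988, plus strand: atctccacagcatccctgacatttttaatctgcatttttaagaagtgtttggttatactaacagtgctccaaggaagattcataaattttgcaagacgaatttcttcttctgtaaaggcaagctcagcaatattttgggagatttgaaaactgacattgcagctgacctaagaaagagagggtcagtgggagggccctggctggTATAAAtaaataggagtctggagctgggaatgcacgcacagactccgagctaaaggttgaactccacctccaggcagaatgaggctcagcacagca
Tie1, chr4:118489800-118490099, minus strand: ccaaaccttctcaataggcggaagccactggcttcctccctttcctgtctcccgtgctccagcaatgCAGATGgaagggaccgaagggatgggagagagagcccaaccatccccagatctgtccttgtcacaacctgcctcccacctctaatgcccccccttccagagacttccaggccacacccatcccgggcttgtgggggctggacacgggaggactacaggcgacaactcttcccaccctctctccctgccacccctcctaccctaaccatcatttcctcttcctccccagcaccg
Kdr, chr5:75978406-75978705, minus strand: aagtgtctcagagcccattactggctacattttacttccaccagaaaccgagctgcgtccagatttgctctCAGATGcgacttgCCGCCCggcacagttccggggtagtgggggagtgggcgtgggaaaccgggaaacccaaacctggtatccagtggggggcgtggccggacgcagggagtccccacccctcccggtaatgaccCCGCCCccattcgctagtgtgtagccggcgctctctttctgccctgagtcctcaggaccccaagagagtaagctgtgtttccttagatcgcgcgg

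The Cxcl13 window held a TATA box at -46 from the start, the only one in these 5 windows. The Ccl19 window held a CCAAT box on the opposite strand at -185 and an E-box at -84. In the Pdgfra window the E-box was the only match, at -182, and Tie1 and Kdr each held an E-box as well, on the opposite strand. Kdr further held a pair of GC boxes, at -166 and -45. Across the gene sets, promoters were at hand for 568 of the 861 genes higher in FRC, for 411 of the 583 lower ones and for 11744 of the 18091 genes compared. The median ratio of observed to expected CpG was 0.518 in promoters of the higher genes, 0.592 in those of the lower genes and 0.724 over all genes compared, while the median GC content was 58.8%, 60.0% and 60.0%. The ETS core was found in 3.70% of promoters of the higher genes, 6.81% of the lower genes, 15.8% of all genes compared and 9.12% of the 27025 promoters in the table. The E-box was found in 16.0%, 12.2%, 12.3% and 17.2% of the same sets, the TATA box in 11.6%, 11.9%, 9.29% and 14.2%, and the GC box in 53.3%, 58.2%, 59.3% and 35.9%. The CCAAT box was found in 32.6%, 33.8%, 38.4% and 37.9%. A match is a stretch of letters and not a bound site.

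A level is the log2 processed signal less that of the array's own 75th percentile, and a fold compares 1 probe, the gene's brightest, between arrays. Where another probe of a gene past 4-fold in the top set or a gene list below was well above background but fell short of 4-fold, its log2 difference is given as well. The 75th percentile was 387, 268 and 361 signal units on the FRC, LEC and BEC arrays, and 59.7% to 60.5% of probes were well above background by the scanner software's own mark. Repeated spots of a probe had a median SD (log2) between 0.0511 and 0.0556, a measure of spot error alone. The lowest level well above background was -4.34 in FRC against -4.20 in LEC and -4.38 in BEC. If a gene had no probe well above background on an array that entered its fold as the dimmer side, this lowest level or the probe's own value, whichever was higher, stood in for it, and the fold is written as at least that size. Differences at other probes use the values as read, with no such stand-in. They, and counts of other probes past 4-fold, can thus rest on values not well above background on the dimmer side. None of 29 widely expressed reference genes was 4-fold apart in FRC, and their median difference was -0.18 against the higher endothelium and 0.16 against the lower.

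The genes higher in FRC had a median fold of 8.63 over the higher endothelium. Of the 861, 462 were at least 8-fold, 230 at least 16-fold, 92 at least 32-fold and 5 at least 64-fold higher, and for 187 the fold is a lower bound. With the stand-in for dim arrays, LEC was the nearer population for 641 of them and BEC for 220. Of these genes, 538 were well above background on both endothelial arrays, 103 on the LEC array but not on BEC, 41 on the BEC array but not on LEC and 179 on neither. The lowest level that stands in is higher for LEC (-4.20) than for BEC (-4.38). For the 179, the nearer population can thus be set by the stand-in alone. The 583 lower genes had a median fold of 7.69 below the lower endothelium, with 285 at least 8-fold, 146 at least 16-fold, 70 at least 32-fold and 27 at least 64-fold lower, and 112 of the folds are lower bounds. On the higher side Ammecr1 at 4.002-fold and Rab32 at 4.003-fold lay just past the threshold and Mmp11 and Ldhb just short of it. On the lower side Oit1 at 4.01-fold and Gbp9 at 4.03-fold lay inside it, and Ciita at 3.99-fold and Slc9a3r2 at 3.96-fold outside. By the same count on these shared arrays, 307 genes set LEC apart from both other populations (1.14% higher, 0.603% lower) and 722 set BEC apart (2.27% higher, 1.75% lower).

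**Figure D1:**
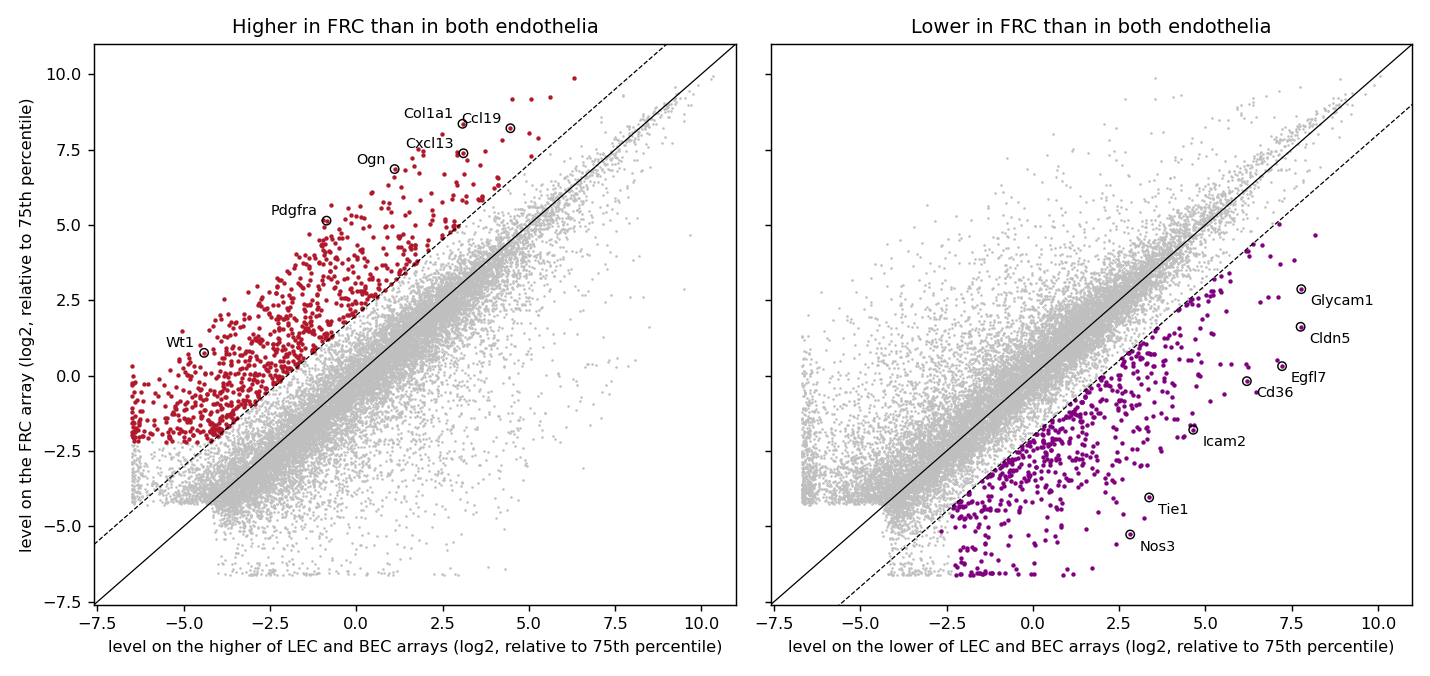
Level of each of the 18091 genes compared on the FRC array (vertical axis, log2 relative to the array's 75th percentile) against the higher (left) or the lower (right) of the LEC and BEC arrays; the solid line marks equal levels, the dashed line a 4-fold difference, and coloured points the genes past it after low arrays were set at their lowest level well above background. The 861 red genes have FRC levels from -2.19 to 9.87, with Wt1 at 0.76 and Col1a1 at 8.35, and the 583 purple genes include Tie1 at -4.04 and Glycam1 at 2.87.

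The genes with the largest measured differences on the FRC side began with Nudt6, whose probes disagreed and which is described further on, and Pcolce2. Pcolce2, an enhancer of procollagen processing, was at 5.64 in FRC against -0.72 in LEC and -3.05 in BEC, 82.5-fold above LEC. Lrrc17, a secreted leucine-rich repeat protein, was at 5.16, -0.97 and -1.78, 70.2-fold higher. Qpct, the glutaminyl cyclase that modifies the first residue of some peptides and chemokines, was at 4.71, -1.37 and -2.15, 67.5-fold higher. In these genes BEC lay below LEC and FRC stood far above both. Pdgfra, a receptor for platelet-derived growth factors, was at 5.14, -0.86 and -2.82, 64.1-fold higher. Its other probe differed by 4.92 on the log2 scale, with neither endothelium well above background there. Srpx, which encodes a sushi-repeat protein, was 63.0-fold higher, and the matricellular gene Smoc2 60.7-fold. Epha3, an ephrin receptor, was also 60.7-fold higher, with 2.01 to 4.38 on the log2 scale at its other probes. Vit, which encodes the matrix protein vitrin, was at 4.93, -0.93 and -3.45, 57.7-fold higher. Vgll3, a cofactor of TEAD transcription factors, was 57.4-fold higher and Gpc3, a heparan sulphate proteoglycan anchored to the membrane, 55.3-fold, at 5.56, -0.23 and -1.30.

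The probes of some leading genes disagreed. Nudt6, a nudix hydrolase gene that overlaps Fgf2 on the opposite strand, had the largest measured fold on the higher side, 83, at 2.54 in FRC against -3.84 in LEC and -4.12 in BEC. Its other probes differed by only -0.57 and -0.09 on the log2 scale. Lrrn2, a neuronal leucine-rich repeat gene, was 55.8-fold higher at its brightest probe and differed by 1.52 on the log2 scale at the other. Of the 264 higher genes with another probe that could be compared, 255 went the same way at all such probes and 200 were past 4-fold at 1 or more.

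Genes seen well above background in FRC alone included regulators as well as matrix genes. Wt1, the transcription factor of mesothelium and some stromal cells, was at 0.76 in FRC against -4.41 in LEC and -6.49 in BEC, at least 31.0-fold higher. Omd, which encodes the small proteoglycan osteomodulin, was at least 27.2-fold higher, and Slc6a2, the noradrenaline transporter, at least 27.1-fold. Ifi205, of a family of interferon-inducible genes with closely related copies, was at least 52.6-fold higher. Xpnpep2, an aminopeptidase, was at least 51.2-fold higher and Calhm5, of the calcium homeostasis modulator family, at least 37.0-fold. Their endothelial levels were all below the lowest level well above background there.

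**Figure D2:**
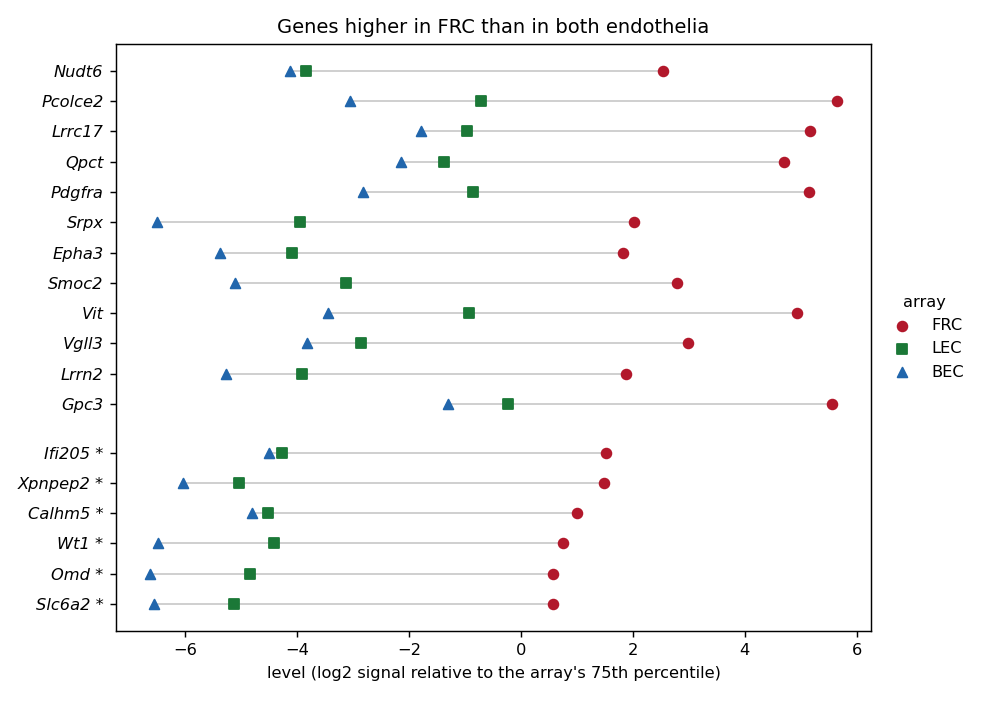
Levels on the FRC (circles), LEC (squares) and BEC (triangles) arrays, log2 relative to each array's 75th percentile, of the 12 genes with the largest measured excess in FRC over both endothelia and, marked with an asterisk, the 6 with the largest lower bounds. In each gene the LEC value lies above the BEC value and FRC lies far to the right of both, from 0.57 for Slc6a2 to 5.64 for Pcolce2.

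The label was checked against its defining markers. Col1a1, a chain of type I collagen, was at 8.35 in FRC against 3.08 in LEC and 2.06 in BEC, 38.7-fold above LEC. Cxcl13, the chemokine that draws B cells, was at 7.38, 3.11 and 1.60, 19.3-fold higher. Ccl19, a ligand of CCR7 on T cells and dendritic cells, was at 8.21, 4.47 and 2.42, 13.4-fold higher. With Pdgfra, all 4 markers were highest in FRC, and their summed linear level was 824 times the 75th percentile in FRC, 39.7 in LEC and 12.7 in BEC. Of the gate genes, the CD31 gene Pecam1 was at -4.06 in FRC against 2.33 and 4.02. The gp38 gene Pdpn was at -0.83, -1.19 and -3.81, so FRC and LEC were within 2-fold of each other as the gates had them, at a modest level. Cd24a was at 1.61, 3.40 and 3.89 and Ptprc, which encodes CD45, at -2.36, -1.57 and 0.23, lowest in FRC though in neither case by 4-fold against LEC.

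Among 21 genes of T zone reticular cells, 6 were higher in FRC than in both endothelia and 1 was lower. Inmt, a methyltransferase, was at 7.31 in FRC against 1.93 in LEC and 0.40 in BEC, 41.5-fold higher. Tnfsf13b, which encodes the B cell survival factor BAFF, was at 2.06, -3.25 and -3.99, 39.5-fold higher. Grem1, an antagonist of bone morphogenetic proteins, was at 3.17, -1.34 and -5.24, 22.8-fold higher. Fmod, the collagen-binding fibromodulin, was 6.28-fold higher, and Pdgfrb, the other platelet-derived growth factor receptor, 4.47-fold, at 4.99, 0.86 and 2.83. Dll1, a Notch ligand, went the other way at 0.01, 2.53 and 3.40, 5.76-fold below LEC. Several classic genes of these cells were not apart from both endothelia. Ccl21a, the other CCR7 ligand, was at 8.66 in FRC against 6.02 in LEC and 8.82 in BEC, and its closely related copies may share its probes. Il7, the T cell survival cytokine, was at 0.27, 0.06 and -1.50, and the adhesion molecule gene Vcam1 at 5.76, 5.16 and 3.33. Bst1, a surface enzyme, was at 3.75, 3.00 and 2.31. The probes of Cxcl12, a chemokine of stromal niches, disagreed: the brightest was at 6.62, 2.78 and 6.98, within 2-fold of BEC, and the other at 6.58, 1.10 and 1.02, which is 5.47 above LEC on the log2 scale. The list's median difference was 0.55 against the higher endothelium, where the median over all genes compared was -0.26.

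Genes of marginal reticular and follicular dendritic cells were higher in 5 of 14 cases and lower in none. Tnfsf11, which encodes RANKL, was at 1.96 in FRC against -3.10 in LEC and -4.75 in BEC, 33.4-fold higher, and 5.62 on the log2 scale at its other probe. Tnfrsf11b, which encodes the RANKL decoy receptor osteoprotegerin, was 13.6-fold higher. Cr2, a complement receptor that marks follicular dendritic cells and B cells, was at 4.09, 0.18 and -1.77, 15.0-fold higher, with 1.16 at its other probe. Sox9, a transcription factor, was 12.1-fold higher. Fcer2a, a further marker of follicular dendritic cells, was at 0.77, -0.29 and 0.29. The sort does not separate these cells from other gp38+ CD31- cells, and the share of each in the RNA was not tested. In RNA from sorted populations, fewer cells of a type and less RNA per cell cannot be told apart.

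Genes of adventitial fibroblasts and mesenchymal progenitors were higher in 16 of 24 cases and lower in none, with a median difference of 3.43 against the higher endothelium. Clec3b, which encodes tetranectin, was at 7.21 in FRC against 1.62 in LEC and -0.73 in BEC, 47.9-fold higher. Mfap5, a microfibril protein, was at 3.66, -1.77 and -4.39, 43.3-fold higher. Cd248, the surface protein endosialin, was at 6.81, 1.42 and 0.69, 41.9-fold higher. Dpt and Efemp1, matrix proteins of loose connective tissue, were 39.8-fold and 38.9-fold higher. Gfpt2, an enzyme of the hexosamine pathway, was 35.1-fold higher and Pi16, a protease inhibitor of adventitial fibroblasts, 31.6-fold, at 5.76, 0.78 and -0.43. Dpp4, the peptidase of the same cells, was 18.6-fold higher. Igfbp6 was 29.4-fold higher, Gsn, which encodes the actin-severing protein gelsolin, 12.3-fold, and Col14a1 11.9-fold. Has2, which makes hyaluronan, was 9.71-fold higher and Has1 at least 9.36-fold. Sema3c, a secreted semaphorin, was at least 8.42-fold higher and Bmp7 5.71-fold. Cd34 and Ly6a, used as surface markers of such cells, were not apart from both: Cd34 was at 7.12, 3.70 and 7.66, and Ly6a at 6.65, 2.75 and 6.98.

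Fibrillar collagens and the enzymes that process them were higher in 15 of 35 cases and lower in none, with a median difference of 1.80. Col1a2 was at 9.17 in FRC against 4.51 in LEC and 2.67 in BEC, 25.3-fold higher. Col3a1, the collagen of reticular fibres, was at 9.18, 5.05 and 3.55, 17.5-fold higher. The regulatory type V chains followed, with Col5a3 43.8-fold, Col5a1 17.2-fold and Col5a2 16.7-fold higher, though the other probes of Col5a3 and Col5a1 differed by 1.83 and 1.43 on the log2 scale. Of the microfibrillar type VI chains, Col6a1 was at 5.25, 0.13 and -0.64, 34.7-fold higher, and Col6a2 9.23-fold. Among the enzymes, Loxl1, which cross-links elastic fibres, was at 6.06, 0.42 and -1.09, 49.9-fold higher. Adamts2, which removes the procollagen amino-terminal peptide, was at 5.23, 0.22 and -1.30, 32.3-fold higher. Pcolce, which speeds removal of the other end, was 10.6-fold higher and the cross-linking enzyme Lox 6.56-fold. Adamts3 was at least 13.1-fold higher at its brightest probe, but the median over its probes was -0.63 on the log2 scale. Its other probes, which enter that median, were not well above background on any array.

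Small leucine-rich proteoglycans, which bind collagen fibrils and set their diameter, were higher in 9 of 11 cases and lower in none. Ogn, or osteoglycin, was at 6.85 in FRC against 1.11 in LEC and -0.16 in BEC, 53.4-fold higher. Lum, or lumican, was at 8.02, 2.49 and 0.59, 46.3-fold higher. Dcn, or decorin, was at 9.87, 6.32 and 3.54, 11.7-fold higher, and its FRC value was the highest level of the list. Beside Omd and Fmod, the others past 4-fold were Podn at 13.6-fold, Aspn at 8.04-fold, Epyc at 4.79-fold and Ecm2 at 4.44-fold. The list's median difference was 3.01 against the higher endothelium.

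Microfibril and elastic fibre genes were higher in 8 of 20 cases and lower in none. Fbln1, which encodes fibulin-1, was at 6.10 in FRC against 0.44 in LEC and -0.86 in BEC, 50.3-fold higher. Emilin2, an elastin interface protein, was at 4.53, -0.71 and -2.45, 38.0-fold higher. Fbn2 was at least 20.7-fold higher and Fbn1, the main fibrillin of adult tissue, 6.88-fold, at 5.84, 3.05 and 1.75. Mfap4 was 17.6-fold and Efemp2 6.12-fold higher. Eln itself, the elastin gene, was at 2.92, 2.61 and 1.94, within 2-fold of both endothelia.

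Of 26 basement membrane genes, 3 were higher and 1 lower, and their median difference was -0.35 against the higher endothelium. Lama2, the laminin chain of mesenchymal basement membranes, was at 2.66 in FRC against -1.94 in LEC and -2.90 in BEC, 24.2-fold higher. Smoc2 and Fras1 were the other higher members, Fras1 by at least 4.04-fold. Agrn, the heparan sulphate proteoglycan agrin, was at 3.14, 5.90 and 5.71, 5.96-fold lower. No type IV collagen was past 4-fold at its brightest probe. Col4a1 and Col4a2 lay between the endothelia, at 5.45, 4.95 and 6.76 and at 3.44, 3.30 and 5.66. Col4a4 was at 3.41, 3.18 and 3.41, but its other probe was 5.69 above the higher endothelium on the log2 scale, at -0.52 in FRC and not well above background in either endothelium. The nidogen gene Nid1 was above both at 7.34, 5.61 and 5.30, short of 4-fold against LEC.

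Matrix metalloproteinases, related ADAMTS enzymes and their inhibitors were higher in 9 of 29 cases and lower in 2. Mmp2, a gelatinase, was at 4.62 in FRC against -0.73 in LEC and -1.86 in BEC, 40.6-fold higher. Mmp19 was 38.3-fold, the stromelysin Mmp3 34.5-fold and Mmp23 33.6-fold higher. Mmp16, a membrane-bound member, was at least 9.78-fold higher. Adamts5, which cleaves aggrecan and versican, was at 5.34, 2.22 and 0.46, 8.74-fold higher. Adamts15 was 10.9-fold and Adamts8 6.26-fold higher. Adamts12 was 12.3-fold higher at its brightest probe but differed by only 0.46 to 0.52 on the log2 scale at the others. Timp4, an inhibitor, was at -2.82, 3.09 and 2.51, 40.1-fold lower in FRC. Adamts9 was 9.95-fold lower at -0.80, 2.51 and 2.97, though by only -0.80 on the log2 scale at its other probe. Timp1, Timp2 and Timp3 were not apart from both endothelia, at 3.27, 8.07 and 4.97 in FRC.

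Matricellular proteins, CCN proteins and binding proteins of insulin-like growth factors were higher in 22 of 42 cases and lower in 1, with a median difference of 2.19. Htra3, a secreted protease that cuts such binding proteins, was at 7.50 in FRC against 1.78 in LEC and 1.16 in BEC, 52.9-fold higher. Svep1, a large adhesion protein, was at 6.33, 0.91 and -0.91, 42.7-fold higher. Matn2, or matrilin-2, was at 4.37 in FRC and at most -0.89 in the endothelia, 38.6-fold higher. Spon2 and Spon1, which encode spondins, were 31.1-fold and 23.8-fold higher. Tnxb, the tenascin of loose connective tissue, was at 5.72, 0.95 and -0.77, 27.4-fold higher, and 1.74 on the log2 scale at its other probe. Pappa, a protease of insulin-like growth factor binding proteins, was 24.2-fold higher and Htra1 17.8-fold. Among thrombospondins Thbs3 was 22.2-fold and Thbs2 6.80-fold higher. Vtn, the plasma and matrix protein vitronectin, was 21.4-fold higher, Abi3bp 9.21-fold, Mgp, an inhibitor of calcification, 8.22-fold, and the proteoglycan gene Vcan 7.83-fold. Ecm1 was 5.04-fold higher at its brightest probe and differed by 0.33 on the log2 scale at the other. Comp, the cartilage oligomeric matrix protein, stood against the rest of the list at -4.24, 0.85 and 1.72, 34.1-fold lower in FRC. Postn was at 6.45 in FRC and Sparc at 8.56, but LEC was within 4-fold of both. At the other probe of Sparc, FRC was at 6.26 against 4.17 in LEC and 6.15 in BEC. Tnc, another tenascin, was at 0.90, 5.05 and 1.72, highest in LEC.

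Wnt ligands and secreted antagonists, listed with receptors and amplifiers of the pathway, were higher in 14 of 34 cases and lower in 1. The list's median difference was 1.52. With a different background correction (normexp with an offset of 50, which pulls dim probes together), 7 of the members were 4-fold higher. Sfrp4 and Sfrp2, soluble antagonists of the frizzled-related family, were 46.2-fold and 44.6-fold higher, Sfrp2 at 4.52 in FRC against -0.97 in LEC and -3.85 in BEC. Fzd2, a frizzled receptor, was 33.0-fold higher. Rspo1, a secreted amplifier of Wnt signals, was at 4.34, 0.03 and -1.42, 19.8-fold higher, and Rspo3 was at least 22.2-fold higher. Sfrp1 was 6.06-fold, Dkk3 4.17-fold and Sostdc1 4.48-fold higher. Wif1 was at least 15.0-fold and Frzb at least 12-fold higher. The ligands were few: Wnt2b was at least 9.28-fold and Wnt10b at least 4.38-fold higher, while Wnt9b was 4.22-fold lower at -3.33, -0.90 and -1.25.

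Among ligands, antagonists and receptors of the bone morphogenetic protein and TGF-beta families, 7 of 32 were higher and 2 lower. Secreted antagonists made up 5 of the 7 higher members. Bmper was at 3.16 in FRC against -2.23 in LEC and -3.29 in BEC, 41.9-fold higher. Fst, or follistatin, was at 2.36, -2.42 and -4.69, 27.5-fold higher, and Chrdl1, a chordin-like antagonist, 25.1-fold. Bmpr1a, a type I receptor, was 23.0-fold higher. Tgfb1 was at -2.76, 0.77 and 1.87, 11.6-fold lower, and Gdf15 at -2.73, 2.61 and 1.26, 15.9-fold lower.

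Growth and survival factors were higher in 11 of 47 cases and lower in 3, and 5 were higher under the normexp correction. Vegfd, a ligand of the lymphatic receptor VEGFR-3, was at 4.01 in FRC against -1.48 in LEC and -2.25 in BEC, 45.0-fold higher. Fgf18 was 16.8-fold higher and Fgf7, or keratinocyte growth factor, at least 21.9-fold, from 0.25 in FRC. Hgf, or hepatocyte growth factor, was at least 10.5-fold higher, with 1.63 to 5.09 on the log2 scale at its other probes, and Angptl1 at least 9.93-fold. Fgf9, Angptl2 and Fgf1 were 4.72-fold, 4.56-fold and 4.30-fold higher, Fgf1 by 1.19 on the log2 scale at its other probe. Nrg1 was at least 4.49-fold higher at its brightest probe, but 0.71 on the log2 scale at another and -1.60 as the median over probes. Its remaining probes, which enter that median, were not well above background on any array. Pdgfb, the ligand made by endothelium, was at -6.57 in FRC against 1.17 in LEC and 2.48 in BEC, at least 45.6-fold lower. Angpt2 was 8.72-fold lower and Hbegf 6.85-fold. The median difference was 0.09 against the higher endothelium and changed sign between alternatives, from -0.02 to 0.11.

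Receptors for growth factors and cytokines were higher in 14 of 46 cases and lower in 4. Axl, a receptor tyrosine kinase for GAS6, was at 5.18 in FRC against -0.40 in LEC and -0.32 in BEC, 45.2-fold higher. Egfr was at 3.48, -2.01 and -2.85, 44.9-fold higher, with 4.21 to 6.79 on the log2 scale at its other probes. The neurotrophin receptors Ntrk2 and Ntrk3 were 28.6-fold and 7.01-fold higher, Ntrk3 by 1.97 on the log2 scale at its other probe. Ddr2, which senses fibrillar collagen, was 11.3-fold higher, and Ddr1 4.58-fold. Lepr, the leptin receptor of perivascular stroma, was at 2.56, -0.80 and -0.34, 7.51-fold higher. Il11ra1 was 4.66-fold and Pdgfrl 4.57-fold higher. The 4 lower members were vascular: Tie1, Kdr, Flt1 and Flt4. Kdr, or VEGFR-2, was at 0.39, 6.72 and 6.18, 55.1-fold lower. Flt1 was 12.1-fold lower and Flt4, or VEGFR-3, at least 8.53-fold. The list's median was -0.00 against the higher endothelium, and its sign changed between alternatives, from -0.03 to 0.01.

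Of 25 chemokine genes compared, 6 were higher in FRC and 1 lower. Ccl11, or eotaxin, was at 4.88 in FRC against -0.73 in LEC and -0.49 in BEC, 41.3-fold higher. Cxcl14 was at 2.58, -1.90 and -2.04, 22.4-fold higher, and Cxcl5 at least 22.9-fold from 0.32. Ccl9 was 7.37-fold higher. With Ccl19 and Cxcl13 these make up the 6. Ccl20, which draws cells with CCR6, was at -6.35, 3.81 and -2.21, at least 4.37-fold lower, and not past the threshold under the normexp correction. Others were not apart from both endothelia: Ccl2 was at 4.37, 3.82 and 3.40, Cxcl1 at 3.13, 3.80 and 4.53, and Cxcl9 at 3.40, 3.44 and 3.69. Ccl7 was 1.79 above LEC on the log2 scale, short of 4-fold.

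FRC are known to restrain T cells through nitric oxide and prostaglandins, and genes of these routes and of checkpoint ligands were higher in 6 of 25 cases and lower in 4. Ptgis, which makes prostacyclin, was at 3.19 in FRC against -2.17 in LEC and -2.56 in BEC, 41.0-fold higher. Ptges, which makes prostaglandin E2, was at 2.22, -1.15 and -3.02, 10.3-fold higher. Hpgd, which breaks prostaglandins down, was 13.2-fold higher. Lgals1, or galectin-1, was at 7.27, 5.07 and 5.03, 4.59-fold higher. Ptgir and Ptger3, prostaglandin receptors, were 11.7-fold and 6.48-fold higher at their brightest probes, with -0.51 and 0.04 on the log2 scale at their other probes. Ptgs2, the inducible cyclooxygenase, was at 1.54, -0.30 and -2.91, short of 4-fold against LEC. Nos2, the inducible nitric oxide synthase, was not well above background in FRC, at -6.50, -3.59 and -3.50. Nos3, the endothelial synthase, was at -5.27, 3.05 and 2.82, at least 143-fold lower. Cd274, which encodes PD-L1, was at -1.78, 2.63 and 2.42, 18.3-fold lower. Vsir, which encodes the checkpoint ligand VISTA, was 10.2-fold lower, and Ido1 5.22-fold.

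Complement genes were higher in 6 of 26 cases and lower in 1. C4b was at 5.91 in FRC against 1.35 in LEC and -0.64 in BEC, 23.7-fold higher. Serping1, the C1 inhibitor, was at 7.44, 3.72 and 2.37, 13.2-fold higher. The subunits it blocks, C1s1 and C1ra, were 9.77-fold and 7.91-fold higher, and Cfi, which cleaves C3b, 7.93-fold. C3 reached 9.31 in FRC but 7.73 in LEC and 4.29 in BEC. Cfd, the protease adipsin of adipocytes, was at -1.02, 1.73 and 3.98, 6.70-fold lower.

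Acute-phase and innate genes were higher in 6 of 24 cases and lower in 1. Saa3, a serum amyloid A, was at 1.37 in FRC against -4.11 in LEC and -3.50 in BEC, 29.2-fold higher. Tnfaip6, which binds hyaluronan, was at 3.08, -1.68 and -3.01, 27.0-fold higher. Hp, or haptoglobin, was at 3.19, -1.51 and -0.99, 18.0-fold higher. Steap4, a metalloreductase, was 15.4-fold higher and Orm2 at least 5.01-fold. Lcn2, or lipocalin-2, was 8.88-fold lower at -2.82, 0.33 and 0.34.

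Retinoid genes were higher in 7 of 22 cases and lower in 1. Stroma of the gut-draining node is known to make retinoic acid, and all 3 of its retinaldehyde dehydrogenases were higher. Aldh1a2 was at 3.42 in FRC against -0.09 in LEC and -1.55 in BEC, 11.4-fold higher. Aldh1a1 was at 3.24, -0.26 and -0.81, 11.3-fold higher, and Aldh1a3 at 2.70 against at most -0.49, 9.13-fold. Adh1, which oxidises retinol, was 6.16-fold higher. Lrat, which stores retinol as esters, was at 1.14, -3.91 and -4.78, 33.1-fold higher. Rbp4, which carries retinol, was 14.5-fold higher, and the retinoid-responsive gene Rarres2, which encodes chemerin, 22.8-fold. Rbp7, a retinol-binding protein of capillary endothelium, was at -3.05, 1.73 and 6.58, 27.5-fold lower.

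Of 49 genes of lipid uptake, lipoproteins and adipogenic precursors, 9 were higher and 7 lower. Abca8a and Abca9, transporters of a gene cluster expressed in fibroblasts, were 41.4-fold and 32.9-fold higher, and Abca6 at least 18.5-fold. Lrp1, an endocytic receptor, was at 4.22 in FRC against -0.50 in LEC and -0.77 in BEC, 26.4-fold higher. Fabp7 was 19.2-fold and Apod 17.4-fold higher. Lpl, lipoprotein lipase, was at 5.51, 2.20 and 2.10, 9.88-fold higher. Its endothelial anchor Gpihbp1 was at -0.33, 4.10 and 7.22, 21.5-fold lower. Cd36, which takes up fatty acids, was at -0.18, 6.20 and 6.38, 83.6-fold lower. Fabp4 was at 4.68, 8.17 and 9.67, 11.2-fold lower, and Pparg, the nuclear receptor that drives both, 5.81-fold. Abcg1, Mgll and Cidec were 5.88-fold, 5.12-fold and 5.11-fold lower. Apoe was at 6.81, 6.17 and 6.95, level across the arrays.

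Transcription factors of mesenchyme were higher in 14 of 50 cases and lower in 5. Tcf21, of fibroblast and mesenchymal lineages, was at 2.06 in FRC against -3.73 in LEC and -3.79 in BEC, 55.2-fold higher. Ebf2 was at 4.01, -1.33 and -1.24, 38.0-fold higher. Twist2, a basic helix-loop-helix factor, was at 2.40, -2.82 and -3.82, 37.2-fold higher. Gli3, an effector of hedgehog signals, was 21.2-fold higher and Osr1 17.8-fold, with Osr2 10.5-fold. Foxf2 was at least 19.1-fold and Sox8 at least 13.8-fold higher. Nkx2-3, known from gut and spleen mesenchyme and from mesenteric endothelium, was at 3.56, -0.51 and 1.39, 4.51-fold above BEC. Zeb2 was 5.81-fold higher. Prrx1 was 40.4-fold higher at its brightest probe, with -1.65 to 5.42 on the log2 scale at its others. The lower members were factors that endothelium also uses: Foxc2 11.7-fold, Tcf15 10.4-fold, Eya1 at least 7.31-fold, Meox1 7.19-fold and Foxc1 6.34-fold. Snai2 was at 3.66, -0.80 and 3.01, shared with BEC.

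Hox genes, which keep positional identity, were higher in 4 of 28 cases and lower in 4. Hoxc9 was at 1.93 in FRC against -3.22 in LEC and -2.47 in BEC, 21.1-fold higher. Hoxc6 was at 2.95, -0.61 and -1.56, 11.8-fold higher, and Hoxc8 at least 9.95-fold. Hoxa10 was 5.01-fold higher. Those past the threshold in the HoxC cluster were thus higher, while Hoxd4, Hoxd8, Hoxb8 and Hoxb9 were lower, by 9.27-fold, 4.78-fold, 5.77-fold and at least 5.41-fold. Under the normexp correction 2 were higher and 1 lower.

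Adhesion genes were lower in 12 of 47 cases and higher in 4, with 8 and 4 under the normexp correction. Itga11, an integrin that binds fibrillar collagen, was at 4.10 in FRC against -0.89 in LEC and -1.19 in BEC, 31.9-fold higher. Itgbl1 was at least 25.3-fold higher, Itgb5 5.96-fold and the hyaluronan receptor Cd44 4.55-fold, with 1.62 on the log2 scale at its other probe. The probes of the cadherin gene Cdh11 disagreed. Its brightest, at -0.84, 0.80 and 0.47, was not past 4-fold, but the others were 3.50 and 3.83 above the higher endothelium on the log2 scale. Cldn5, the tight junction claudin of endothelium, was at 1.62, 8.50 and 7.76, 70.5-fold lower. Cdh5, which encodes VE-cadherin, was at 0.38, 5.76 and 6.83, 41.6-fold lower. Cldn11 was 36.4-fold lower, Esam 12.5-fold, Mcam 8.84-fold and F11r 4.92-fold. The integrins lower in FRC were Itga3, Itgb4 and Itga6, which bind laminin, by 5.94-fold, 5.39-fold and 4.10-fold. Their other probes ran from -4.59 to -0.57 on the log2 scale for Itga3, from -2.56 to -1.44 for Itgb4 and from -1.92 to -1.56 for Itga6.

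Axon guidance genes, which also steer vessels, lay on both sides: 12 of 47 were higher and 13 lower, with 7 and 10 under the normexp correction. Slit3, a ligand, was at 3.46 in FRC against -0.77 in LEC and -0.78 in BEC, 18.8-fold higher. Robo4, the endothelial member of the Slit receptor family, was at -0.61, 5.53 and 7.31, 70.4-fold lower. Among ephrin receptors, Ephb2 and Ephb3 were 11.3-fold and 10.9-fold higher and Epha7 at least 6.99-fold, with 1.54 on the log2 scale at the other probe of Ephb2, while Epha2 was 39.9-fold and Ephb4 4.31-fold lower. Efnb2, the ephrin of arteries and lymphatics, was 16.0-fold lower and Efna1 10.3-fold. Efna5 was 21.4-fold higher at its brightest probe and differed by 0.83 on the log2 scale at the other, and Efna2 was at least 8.24-fold higher. Sema3b was 16.0-fold higher and Sema3e at least 8.05-fold, though the median over the probes of Sema3e was -0.39 on the log2 scale. That median takes in probes not well above background in FRC, and the other probe well above it differed by 3.48. Sema3f, Sema7a, Sema3g and Sema6a were 14.1-fold, 8.20-fold, 7.96-fold and 4.95-fold lower, Sema6a by -1.42 on the log2 scale at its other probe. Among plexins, Plxna2 was 9.10-fold, Plxna4 6.77-fold and Plxnd1 4.54-fold lower, and Plxnc1 7.19-fold higher. The other probes of Plxna2 differed by -2.15 and -1.31 on the log2 scale. Ntng1, a netrin-like ligand, was at least 20.0-fold higher, and the co-receptor Nrp2 4.09-fold lower.

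On the lower side, Tie1 had the largest measured difference. Tie1, a receptor kinase of the angiopoietin system, was at -4.04 in FRC against 3.37 in LEC and 4.49 in BEC, 170.3-fold lower. Its FRC level lay near the lowest well above background, and under the normexp correction the log2 difference was -5.51 in place of -7.41. Egfl7, a secreted endothelial protein, was at 0.31, 7.22 and 7.87, 120.0-fold lower. Mmrn2, a multimerin of the vessel wall, was at 0.52, 7.07 and 7.32, 93.9-fold lower. Icam2, an adhesion molecule for leukocytes, was at -1.80, 4.65 and 5.37, 87.1-fold lower. Pecam1, whose protein CD31 was gated against in FRC, was 84.1-fold lower. Its other probe differed by -3.03 on the log2 scale, with FRC not well above background there. Myct1 was 83.2-fold lower, and the scavenger receptors Stab1 and Scarf1 82.3-fold and 78.6-fold. Rasip1, needed for vessel lumens, was at -1.64, 4.66 and 5.29, 78.6-fold lower. Gimap6 and Gimap5, GTPases of an immune gene family, were 74.0-fold and 73.7-fold lower. The LEC and BEC values of these genes lay within 4-fold of each other.

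Further genes were not well above background in FRC. Gata2, a transcription factor of endothelium and blood, was at -4.71 in FRC against 3.23 in LEC and 4.04 in BEC, at least 189-fold lower. Adgrf5, an adhesion receptor, was at least 124-fold lower and the carboxylesterase gene Ces2e at least 108-fold. Ppp1r16b, a phosphatase subunit of endothelium, was at least 97.3-fold lower, with -3.13 and -1.91 on the log2 scale at its other probes. Afap1l1, an actin-associated protein, was at least 74.5-fold lower. Of the 186 lower genes with another probe that could be compared, 175 went the same way at all such probes and 125 were past 4-fold at 1 or more.

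**Figure D3:**
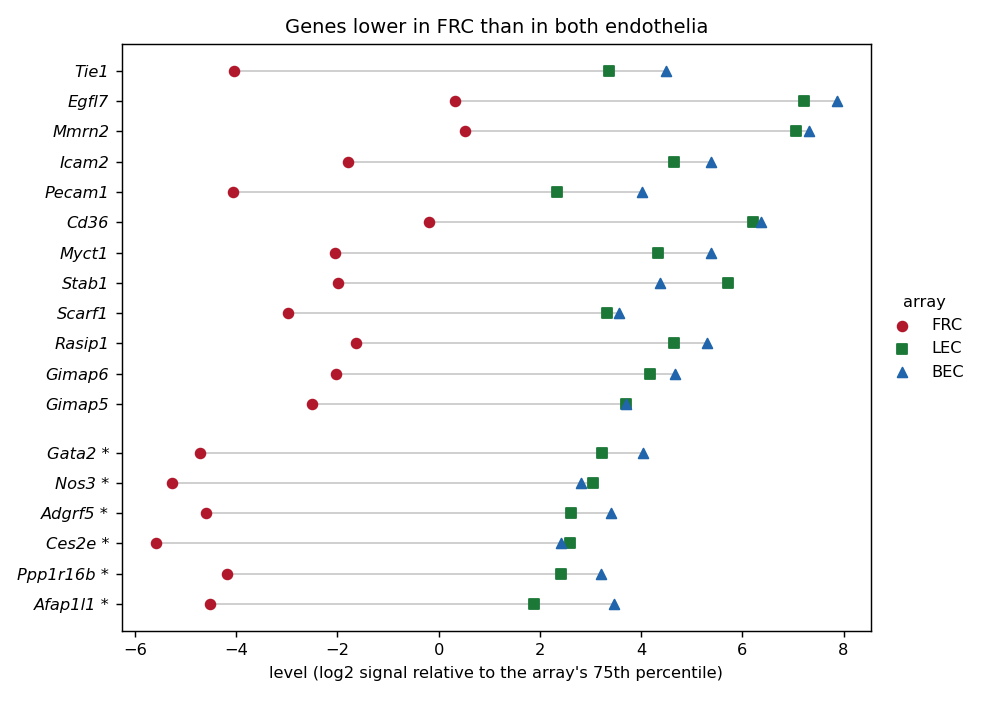
Levels on the FRC (circles), LEC (squares) and BEC (triangles) arrays, log2 relative to each array's 75th percentile, of the 12 genes with the largest measured deficit in FRC against both endothelia and, marked with an asterisk, the 6 with the largest lower bounds. FRC values run from -5.59 for Ces2e to 0.52 for Mmrn2, while LEC and BEC lie on the right, within 4-fold of each other. LEC is above BEC for Stab1, Nos3, Ces2e and, barely, Gimap5.

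Of 28 genes shared by both endothelia, 25 were lower in FRC and none higher. Beside those given, Cd93 was 72.1-fold, Ptprb 61.5-fold, Emcn 38.8-fold, S1pr1 17.1-fold and Ecscr 8.12-fold lower, and Adgrl4 at least 31.9-fold. Tspan7 was the nearest to the threshold, at 4.36, 6.97 and 6.38, 4.06-fold lower. Tek, the angiopoietin receptor, was not apart, at 0.97 in FRC against 1.21 in LEC and 2.27 in BEC, nor was the endoglin gene Eng at 2.96, 4.68 and 6.35. The summed linear level of these 28 genes was 51.8 times the 75th percentile on the FRC array, 1341 on LEC and 1941 on BEC, and 4 of them were not well above background in FRC.

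Genes of lymphatic endothelium were lower in 13 of 22 cases and those of blood endothelium and high endothelial venules in 16 of 27, with none higher in either list. Under the normexp correction 9 and 13 were lower. Nts, or neurotensin, was at -1.25 in FRC against 5.46 in LEC and 4.62 in BEC, 58.7-fold lower. Tbx1 was 42.3-fold lower, Mmrn1 31.8-fold and Ackr4 26.7-fold. Lyve1, the hyaluronan receptor, was at -0.94, 6.87 and 3.09, 16.3-fold below BEC, and -1.70 on the log2 scale at its other probe. Prox1, the master factor of lymphatic fate, was at -3.56, 3.53 and -0.51, 8.27-fold below BEC. These folds are set by BEC, the lower of the endothelia for such genes. In the venule list, Glycam1, a ligand for L-selectin, was at 2.87, 7.78 and 9.49, 30.1-fold below LEC. Plvap was 18.6-fold lower, Cd300lg 16.4-fold, Car4 at least 15.2-fold, Sox17 10.0-fold, Aplnr 8.91-fold, Fut7 7.44-fold and Vwf 7.0-fold, though the other probe of Aplnr differed by -0.78 on the log2 scale. The summed level of the venule list was 230 in FRC against 506 in LEC and 2452 in BEC, and that of the lymphatic list 451, 919 and 595, where Ccl21a and other genes that FRC express count toward the FRC sum. Whether stray endothelial RNA adds to the FRC values was not tested.

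Transcription factors of endothelium were lower in 16 of 33 cases and higher in none, with a median difference of -1.55 against the lower endothelium. Under the normexp correction 13 were lower. Hhex was at -2.74 in FRC against 2.73 in LEC and 2.69 in BEC, 43.0-fold lower. Tal1 and Lyl1, of a basic helix-loop-helix pair, were 35.4-fold and 28.0-fold lower. Sox18 was at 0.39, 5.42 and 6.70, 32.7-fold lower, and Sox7 26.5-fold. The ETS factors Fli1, Ets1 and Elk3 were 20.9-fold, 8.25-fold and 5.27-fold lower and Erg at least 7.75-fold, with -1.93 to -1.13 on the log2 scale at the other probes of Ets1. Bcl6b was at least 18.2-fold lower.

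**Figure D4:**
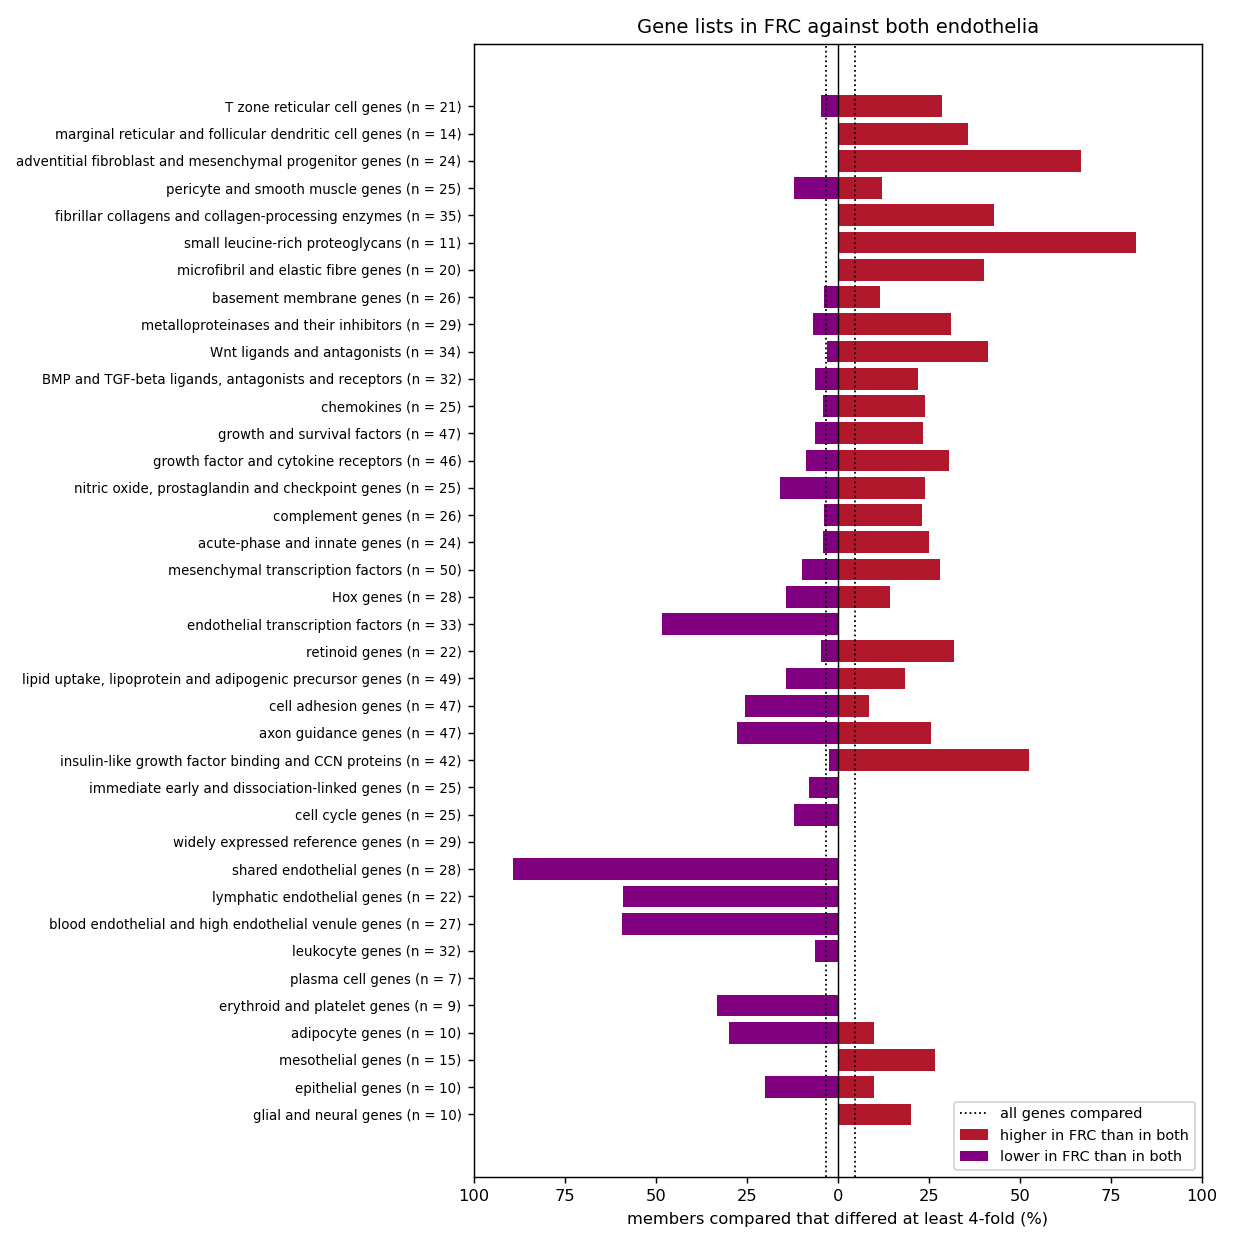
Percent of the members compared in each gene list (n in brackets) that were at least 4-fold higher in FRC than in both endothelia (red, to the right) or at least 4-fold lower (purple, to the left); dotted lines mark 4.76% and 3.22%, the shares over all 18091 genes compared. Small leucine-rich proteoglycans reach 81.8% on the right and shared endothelial genes 89.3% on the left, while axon guidance genes extend both ways.

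Markers of other cell types were read on the same arrays, since sorted fractions were not pure. Of 32 leukocyte genes, none was higher in FRC and 2 (6.25%) were lower, beside 4.76% and 3.22% of all genes compared. The 2 were Lck at 6.58-fold and Cd79b at 4.12-fold (1 of them under the normexp correction). The list's summed level was 25.0 in FRC against 44.3 in LEC and 68.9 in BEC. Of the defining leukocyte markers, Cd3e, Lyz2, Cd74 and Ptprc were well above background in FRC, Ptprc at a low level. Cd79a was low but detected. Plasma cell genes were apart in 0 of 7 cases, a list too short to set against those shares. Of 9 erythroid and platelet genes 3 were lower, all globins: Hba-a2 5.81-fold, Hba-a1 5.05-fold and Hbb-bt 4.81-fold, which closely related copies make uncertain, and the list's summed level was 26.5, 133 and 330.

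Pericyte and smooth muscle genes were higher in 3 of 25 cases and lower in 3, with summed levels of 213 in FRC against 142 in LEC and 205 in BEC. Abcc9 and Kcnj8, subunits of a potassium channel of pericytes, were 17.7-fold and 6.94-fold higher and Des, or desmin, 4.02-fold. Mcam, Smtn, at 4.50-fold, and Cnn1, at 4.36-fold, were lower. Acta2 was at 5.48, 5.67 and 5.17, level on the arrays, and Rgs5 at 1.19 in FRC and 1.35 in LEC. Mesothelial genes were higher in 4 of 15 cases: Wt1, Rspo1, Lrrn4 at 4.97-fold and Nkain4 at 4.46-fold. Under the normexp correction 2 were, and the summed level was 44.9, 30.2 and 14.5. The defining mesothelial marker Msln was at 1.17 in FRC against 0.28 in LEC and -1.40 in BEC, and Upk3b at 0.31, -1.51 and -3.38. The part of mesothelial RNA in the values of Wt1 and Rspo1 was not tested.

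Adipocyte genes were higher in 1 of 10 cases, Plin1 at 12.5-fold, and lower in 3, Cfd, Cidec and Aqp7, the last by at least 6.22-fold. Adipoq was at 0.38, -0.66 and 0.80, and Lep was not well above background on any array. Epithelial genes were higher in 1 of 10 cases, Krt20 at 17.4-fold, and lower in 2, Vil1 at least 4.79-fold and Lgals4 4.29-fold, with summed levels of 4.63, 3.69 and 2.52, and the defining epithelial markers Epcam and Cdh1 were at -2.59 and -2.71 in FRC. Glial and neural genes were higher in 2 of 10 cases, S100b at 22.9-fold and Mbp at 4.04-fold. Mbp was -0.069 on the log2 scale as the median over its probes, the others of which were not well above background. The glial marker Sox10 was at -0.21 in FRC. Summed levels were 26.1, 11.1 and 40.4 for adipocyte genes and 15.5, 8.47 and 12.4 for glial genes. Under the normexp correction, 0 adipocyte genes were higher and 1 lower, 1 epithelial gene was higher and 0 lower, and 1 glial gene was higher. The part of each of these cell types in the results was not tested.

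**Figure D5:**
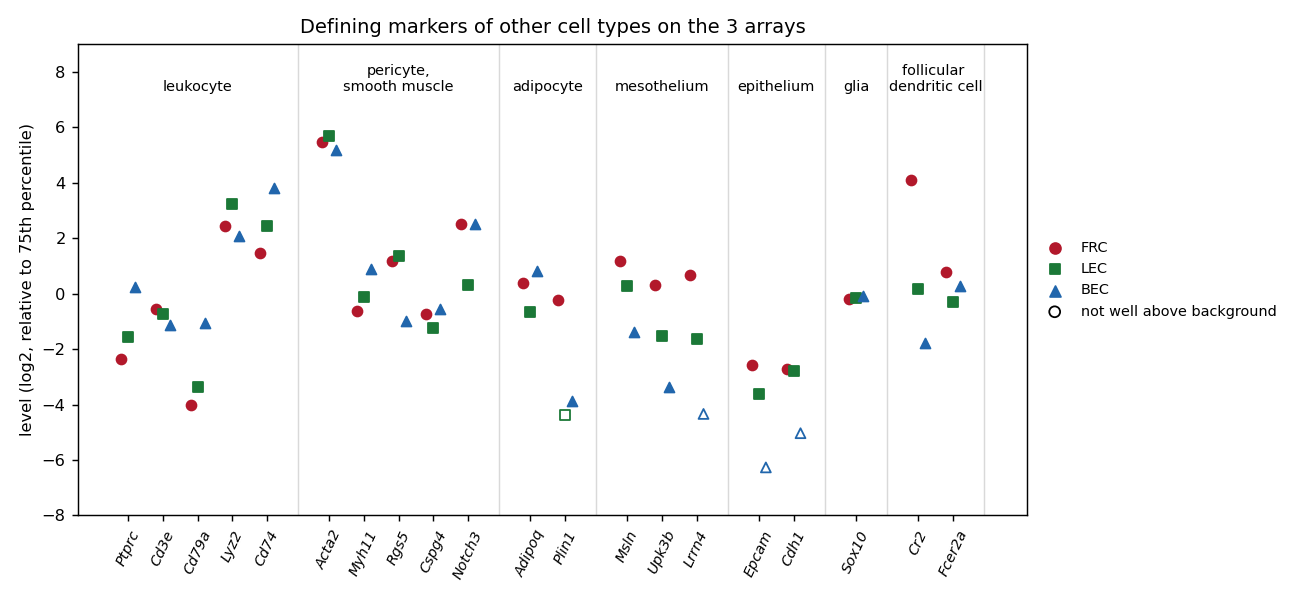
Levels of defining markers of other cell types on the FRC (circles), LEC (squares) and BEC (triangles) arrays, log2 relative to each array's 75th percentile; open symbols are not well above background. Cr2 at 4.09 stands highest in FRC against both endothelia, Acta2 lies between 5.17 and 5.67 on all 3 arrays, and Ptprc and Cd79a are lowest in FRC.

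Genes linked to tissue dissociation and to the cell cycle were read last. Of 25 immediate early and heat shock genes none was higher in FRC and 2 were lower, Hspa1b 9.80-fold and Hspa1a 6.38-fold, near-identical copies that probes may not separate, and Hspa1b by -1.30 on the log2 scale at its other probe. Fos was at 6.63, 6.63 and 7.43 and Egr1 at 6.07, 6.33 and 7.26, and the list's summed level was 833 in FRC against 1108 in LEC and 2043 in BEC. Of 25 cell cycle genes none was higher and 3 were lower, with Mki67, a proliferation marker, at -1.73, 1.13 and 1.77, 7.27-fold lower, and -1.80 on the log2 scale at its other probe. Cenpf was at least 6.29-fold and Cenpe 4.50-fold lower, and 1 cell cycle gene was past the threshold under the normexp correction. The median difference of the cell cycle list was -1.39 against the higher and -1.02 against the lower endothelium, beside -0.26 and 0.19 over all genes compared.

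LEC and BEC were set against each other in the genes that set FRC apart. Of 16304 compared genes well above background on both endothelial arrays, 93.9% had LEC and BEC within 4-fold of each other. Among the 538 higher genes well above background on both endothelial arrays, 494 (91.8%) had them within 4-fold, 35 had LEC at least 4-fold above BEC and 9 the reverse, and the other 323 higher genes were not counted. Among the 583 lower genes, 472 (81.0%) had them within 4-fold, 73 had BEC at least 4-fold above LEC and 38 the reverse. FRC lay between the endothelia in 4290 of the 18091 genes, 23.7%, and by at least 4-fold from each in only 15.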

How the data were processed

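The authors deposited 1 scanner file per array, whose processed signal is a linear intensity that Agilent Feature Extraction 10.7.3.1 made, per the submitters' processing notes. It is background-subtracted and unscaled between arrays, per the file headers. RNA was amplified in 1 round and dye-labelled, per the labels' protocols. Outlier spots were left out, replicate spots averaged (41156 probes, 18 removed), and each deposited intensity was put on the log2 scale minus the array's 75th percentile. A gene (28080 names, updated through RefSeq accessions, which matched 26681 probes) stands for its brightest probe by mean. It was compared if well above background in FRC or in both endothelia, and called at 4-fold. With 1 array per population there is no spread between replicates, and the number of arrays limits the precision. The comparison was checked on simulated data.

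Named genes were the 12 largest measured differences and 6 largest lower bounds in each direction among official-style symbols, then members of 40 gene lists that were past 4-fold or went against their list. Some members of these lists are counted but not reported here by name. Members and lists were chosen with earlier results of these data known. Promoters came from a RefSeq table on GRCm38.p6; exon and UTR positions of probes were not analysed here. Alternatives covered scaling, background correction (limma 3.58.1 in R 4.3.3), dim-probe filters, the probe rule, the threshold, the endothelial reference and the authors' series matrix. Other steps used Python 3.11.15, numpy 2.4.6 and pandas 2.3.3.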

Additional observations from a re-analysis of the deposited data

How the results depend on the processing

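Counts of genes past 4-fold were taken again under each alternative. Genes higher in FRC than in both endothelia numbered 861, and 860 with array medians as the scale, 867 after quantile normalization and 873 from the authors' series matrix values, of which 852, 854 and 854 were among the 861. They numbered 511 with normexp background correction, 533 where the probe was well above background on all arrays, 1810 at 2-fold, 462 at 8-fold and 1109 against the mean of the endothelia. Genes lower in FRC numbered 583, and 578, 575 and 574 under the same 3 scalings, 351 with normexp, 463 with the filter on all arrays, 1536 at 2-fold, 285 at 8-fold and 889 against the mean of the endothelia. The share of calls that were higher was 59.6%, and 59.3% to 60.3% over these scalings, normexp, the median over probes and no filter on dim probes. It was 53.5% with the filter on all arrays, 54.1% at 2-fold, 55.5% against the mean of the endothelia and 61.8% at 8-fold. Normexp moved the median FRC minus LEC over all genes from -0.11 to -0.31 and FRC minus BEC from 0.00 to -0.13, and its offset pulls dim probes together by construction. Of 339 named or listed genes past the threshold, 337 or 338 stayed past it under the other scalings, 268 with normexp and 302 with the median over a gene's probes. That last setting turned Adamts3 (-0.63), Mbp (-0.069), Nrg1 (-1.60) and Sema3e (-0.39) negative. Their medians take in probes not well above background in FRC. For Adamts3, Nrg1 and Sema3e, the higher endothelium stood at its lowest level well above background. No other probe of these genes well above background in FRC lay below the higher endothelium.

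No paired analysis was possible because each population has 1 array, and no replicate was left out. Differences between animals, sorts or amplifications are thus not measured, purity was below full, and folds of genes near the lowest level well above background, such as Tie1 and Pecam1, rest on dim signals.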

Other observations

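Some genes of FRC were shared with only one of the endothelia. These sets were chosen after their values had been seen and are given as values. In 97 of the 18091 genes compared (0.536%), FRC was at least 4-fold above LEC and within 2-fold of BEC. Snai2, a transcription factor of mesenchymal change, was at 3.66 in FRC against -0.80 in LEC and 3.01 in BEC. Nrp1, a co-receptor for semaphorins and VEGF, was at 2.40, -1.15 and 2.37. Another of its probes went the same way, at -0.94, -6.43 and -1.81. A further probe, at -0.82, -3.88 and 0.34, differed by -1.16 from BEC on the log2 scale, outside 2-fold. Alpl, the tissue-nonspecific alkaline phosphatase, was at 1.68, -2.26 and 2.26.

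In 299 of the 18091 genes (1.65%), FRC was at least 4-fold above BEC and within 2-fold of LEC. Slit2, a guidance ligand, was at 1.32 in FRC against 0.72 in LEC and -3.34 in BEC. Another of its probes went the same way, at -0.67, -0.89 and -6.67. A further probe, at -3.16, -3.57 and -3.99, was only 0.82 above BEC on the log2 scale. Prrx2, a homeobox factor, was at 1.90, 1.90 and -2.59. Timp2, a metalloproteinase inhibitor, was at 8.07, 7.22 and 3.77. Among the 15 genes with FRC at least 4-fold from each endothelium and between them, Coch, a matrix protein also known from follicular dendritic cells, was at 0.98, 3.92 and -2.14, while Ly6c1 was at 5.17, 2.55 and 7.35.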
